A study of Mus musculus with 6 samples.

Results

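Matrix metalloproteinases (MMPs), ADAMs, ADAMTSs, and their tissue inhibitors (TIMPs) were examined in parental (P) and axitinib-resistant (AxR) 4T1 cells. Members were all protein-coding genes whose symbol starts with Mmp, Adam, Adamts, or Timp followed by a digit, which gave 78 of the 53465 genes in the table, namely 22 Mmp, 33 Adam, 19 Adamts, and 4 Timp genes. Mmp1a also matched by name but is annotated as a polymorphic pseudogene and was left out. Transcript abundance had been measured by RNA sequencing in 3 P and 3 AxR libraries. 4T1 cells come from a mammary tumor of a BALB/c mouse and spread spontaneously from the mammary fat pad. Both groups derive from 4T1, for which the study names no engineered allele. AxR cells were recovered from a metastatic lesion of mice given axitinib, a VEGF receptor inhibitor, at 100 mg/kg/day, and were then grown with 0.5 μM axitinib for more than 2 months, while P cells were vehicle-treated by the study's account. The growth label, however, lists 0.5 μM axitinib for all 6 samples. AxR is 1 derived line, so drug exposure, passage through the animal, and culture history cannot be told apart, and whether the replicates were separate cultures is not stated, so that p-values measure only the spread between these libraries.

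MMPs are zinc-dependent proteases that cleave collagens, laminins, and other matrix proteins. Most are secreted as inactive precursors, and the membrane-type members stay anchored at the cell surface. ADAMs are membrane proteins, many of which release growth factors, cytokines, and adhesion molecules from the cell surface, whereas ADAMTSs are secreted and process proteoglycans, procollagens, and microfibril proteins. TIMPs bind the active site of MMPs, and of some ADAMs and ADAMTSs, and block it. In carcinomas the balance between these proteases and inhibitors is known for its part in invasion, and much of the MMP and ADAMTS transcript of a tumor usually comes from fibroblasts and leukocytes.

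The 6 libraries held between 15495260 and 17294525 estimated counts each. In these libraries, 5 of 6 epithelial markers (Epcam, Cdh1, Krt7, Krt8, and Krt18) were higher in AxR cells and Krt19 was lower, and the summed level of the list was between 1886 and 2105 counts per 1000000 (CPM) in P and between 3000 and 3176 CPM in AxR libraries. Of 10 fibroblast markers, 0 had enough counts to be tested, 3 (Col3a1, Lum, and Thy1) had no count, and their sum was at most 0.973 CPM in P and 1.28 CPM in AxR libraries. Of 8 leukocyte markers, Cd68 and Cd14 were tested and both were higher in AxR cells, Tyrobp and Fcer1g had no count, and the sum was between 6.14 and 8.28 CPM in P and between 16.6 and 17.3 CPM in AxR libraries. The 6 endothelial markers summed to at most 0.693 CPM in any library, and 1 of 5 lung epithelial markers (Foxj1) was tested and higher in AxR cells, with the list summing to at most 1.15 CPM in P and 4.19 CPM in AxR libraries. The part of these markers in the values of the members was not tested.

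Detection divided the members sharply. Of the 78 members, 32 passed edgeR's filter on low counts and were tested, 9 others had more than 3 counts in some library, 14 had 1 to 3 counts at most, and for 23 all 6 libraries were at 0. The floor was set at 3 counts per library, which corresponds to between 0.171 and 0.196 CPM. No count was found for Mmp7, the matrilysin, or for the membrane-type genes Mmp16 and Mmp25. The same held for Mmp21, Mmp27, Adamts2, Adamts19, Adamts20, Timp4, and 14 ADAMs, namely Adam2, Adam6a, Adam6b, Adam7, Adam20, Adam23, Adam24, Adam25, Adam26a, Adam26b, Adam28, Adam29, Adam34, and Adam39, most of which are known from testis or epididymis. Mmp8, Mmp12, Mmp17, Mmp20, Mmp1b, Timp3, Adam5, Adam30, Adamts3, Adamts13, and Adamts15 to Adamts18 had between 1 and 3 counts at most. Mmp2, the gelatinase that stromal cells produce in quantity, had 5, 11, and 6 estimated counts in the P libraries and 4, 6, and 4 in the AxR libraries, too few to be tested.

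**Figure D1:**
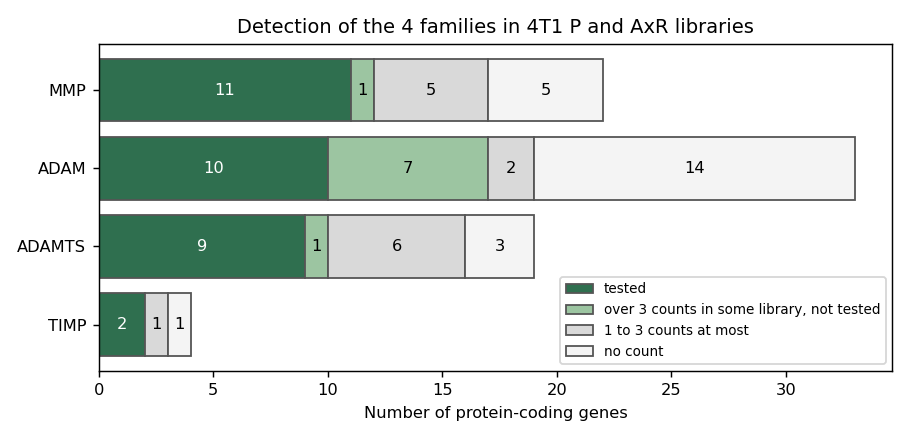
Number of protein-coding MMP, ADAM, ADAMTS, and TIMP genes by detection in the 6 libraries. The bars show that 11 of 22 MMPs, 10 of 33 ADAMs, 9 of 19 ADAMTSs, and 2 of 4 TIMPs were tested, and that 14 ADAMs had no count.

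The remaining untested members were low in both lines. Adam18, a sperm surface ADAM, had 0, 1, and 0 counts in the P libraries and 7, 5, and 3 in the AxR libraries. Adamts12, an enzyme that degrades cartilage oligomeric matrix protein, had 5, 3, and 3 counts in P and none in AxR libraries. These were the untested members whose libraries differed most between the lines, and neither passed the filter on low counts. Without that filter Adam18 was called higher (adjusted p = 0.00625) and Adamts12 lower (adjusted p = 0.00529) by edgeR. Adam11, Adam21, Adam22, Adam32, Adam33, and Adam1b had at most 14 counts in any library, and for each of them the range of the P libraries overlapped that of the AxR libraries.

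Levels of different genes were compared as transcripts per 1000000 (TPM), which divides the estimated counts by exon length. Timp2 was the most abundant member in both lines, with 277 ± 8.93 TPM in P cells and 467 ± 23.3 TPM in AxR cells (SD, n = 3 each). Adam9 came second with 196 ± 4.85 and 158 ± 4.36 TPM, and Adam10 had 127 ± 7.25 and 132 ± 6.79 TPM. In P cells, Adamts1 followed with 99.3 ± 5.54 TPM. Timp1, Mmp9, and Mmp14 lay within their spread of each other in P cells, at 80.6 ± 11.6, 78.5 ± 2.25, and 78.1 ± 6.03 TPM. In AxR cells they no longer did, since Mmp14 ranked 3 of 32 with 138 ± 6.29 TPM, Timp1 ranked 6 with 61.3 ± 5.91 TPM, and Mmp9 ranked 12 with 20.6 ± 0.473 TPM. The order depends on the exon length used. With the length of the longest protein-coding transcript in place of all exons, Mmp14 ranked 3 in P cells and 2 in AxR cells, and Timp2 ranked 1 in both.

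**Figure D2:**
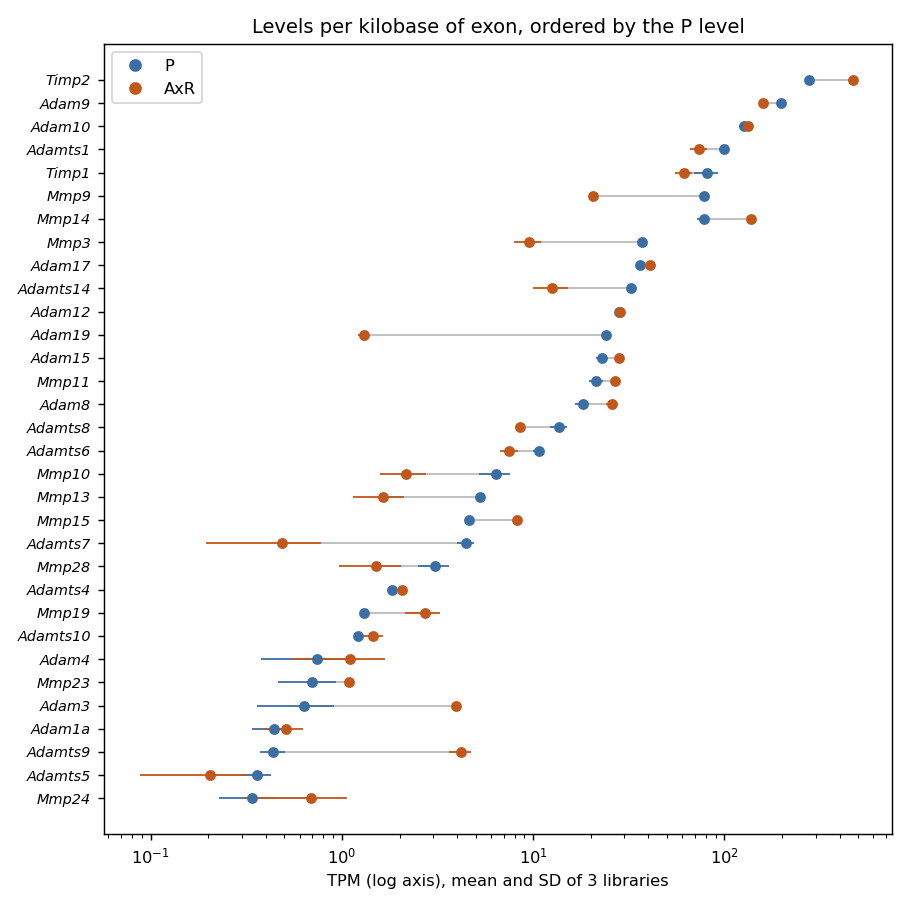
Mean level of the 32 tested members in P (blue) and AxR (orange) libraries in TPM on a log axis, with the SD of 3 libraries. Timp2 lies highest in both lines, Mmp9 and Adam19 lie well to the left in AxR cells, and Adamts9 and Mmp14 lie to the right.

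Between the lines, 11 of the 32 tested members were higher in AxR cells and 13 were lower at an adjusted p under 0.05. Over all 13550 tested genes, 32.8% were higher and 30.8% lower, so the 34.4% of members that rose are near the background and the 40.6% that fell are above it, a difference that was not tested. Large changes were counted separately. When the change also had to reach 1 on the log2 scale in either direction, 4 members were higher and 7 lower, which is 12.5% and 21.9% of those tested, where 7.99% and 4.72% of all tested genes passed. These differences were not tested either. Among the 7 are Mmp3, Mmp10, and Mmp13, which lie in 1 cluster on chromosome 9 and may not be independent cases. The median absolute log2 fold change of the tested members was 0.74, against 0.35 over all tested genes, and the median log2 fold change was 0.18 against 0.01. The values of the lines were fully separated, with no overlap, for 27 of the 32 members (84.4%), where 68.3% of all tested genes were separated in this way. Taken singly, a separation of this kind cannot go below p = 0.1 in a two-sided exact permutation test of 3 libraries against 3. In bulk RNA, a lower level can come from fewer expressing cells or from less RNA per cell, which cannot be told apart here.

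**Figure D3:**
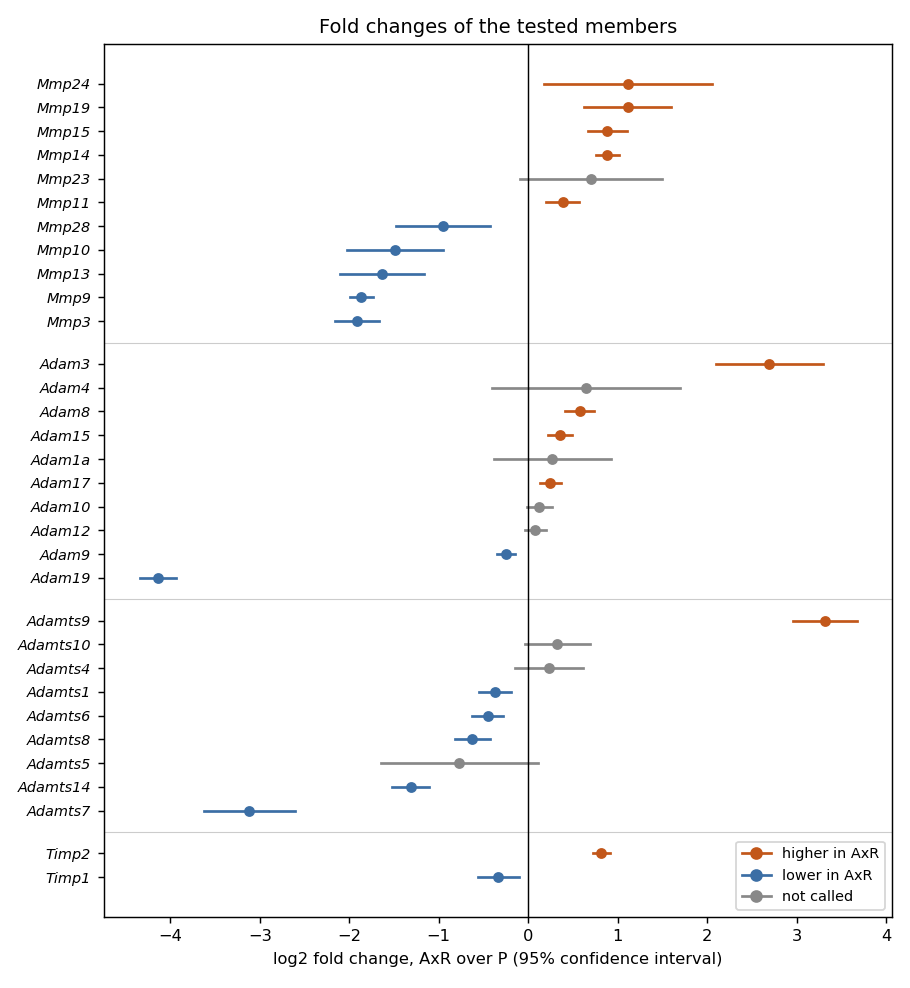
Log2 fold change of each tested member in AxR over P cells with its 95% confidence interval from edgeR, grouped by family. Orange members were higher, blue members lower, and grey members did not pass an adjusted p of 0.05; Adam19 is the lowest at -4.14 and Adamts9 the highest at 3.32.

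Of the 7 secreted MMPs that were tested, 5 fell in AxR cells and 2 (Mmp11 and Mmp19) rose. Over all tested genes, 30.8% fell and 32.8% rose, and the difference was not tested. Mmp9, gelatinase B, which degrades denatured and basement membrane collagen, had 83.9, 81.6, and 82.6 CPM in the P libraries and 23.1, 22.9, and 22.0 CPM in the AxR libraries. Its log2 fold change was -1.87, with a standard error (SE) of 0.060 and an adjusted p of 2.32e-12. The gene occupies positions 164940780 to 164955850 of chromosome 2 (GRCm38, plus strand). Mmp3, stromelysin-1, had 18.2, 20.2, and 21.5 CPM in P and 4.51, 5.80, and 5.52 CPM in AxR libraries (log2 fold change -1.92, SE 0.115, adjusted p = 1.71e-09). Mmp13, collagenase-3, had 4.25, 3.87, and 4.50 CPM in P and 1.02, 1.79, and 1.25 CPM in AxR libraries (log2 fold change -1.63, SE 0.219, adjusted p = 1.02e-05). Mmp10, stromelysin-2, had 2.61, 3.23, and 3.98 CPM in P and 0.889, 1.15, and 1.42 CPM in AxR libraries (log2 fold change -1.49, SE 0.250, adjusted p = 9.67e-05). For these 4 genes the AxR values all lay under the lowest P value, and Mmp10 and Mmp13 were low in both lines. Mmp28, epilysin, fell from 3.53 ± 0.708 to 1.79 ± 0.589 CPM (SD, n = 3 each) with log2 fold change -0.96. Mmp11, stromelysin-3, which is activated by furin inside the cell, rose instead, from 17.7 ± 1.85 to 23.1 ± 1.07 CPM (SD, n = 3 each) with log2 fold change 0.39. It shares exon sequence on the opposite strand with Chchd10, which had a log2 fold change of 2.39, and whether the authors counted reads by strand is not given in the sources used here. Mmp19 was also higher, with 1.40, 1.33, and 1.37 CPM in P and 2.35, 3.32, and 3.19 CPM in AxR libraries (log2 fold change 1.11, SE 0.227, adjusted p = 0.000536), and it overlaps Tmem198b on the opposite strand, whose log2 fold change was -0.42.

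Mmp13, Mmp3, and Mmp10 are neighbours. They belong to a cluster of 9 members on chromosome 9 that spans 427 kb, from 7272514 to 7699585, in the order Mmp13, Mmp12, Mmp1b, Mmp3, Mmp10, Mmp8, Mmp27, Mmp20, and Mmp7. The other 6 members of the cluster had at most 3 counts in any library. Of the 8 tested genes within 500 kb of the cluster, Dync2h1, Tmem123, and Cfap300 rose, Dcun1d5, Birc2, and Yap1 were not called, and Birc3 and Cep126 fell. Dcun1d5 and Tmem123, the nearest on either side, had log2 fold changes of -0.02 and 0.39, and Cep126, the farthest, had -2.68. The median of the 757 tested genes of chromosome 9 was -0.23.

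Promoters of MMP genes are known for a binding site of AP-1, the dimer of FOS and JUN proteins, close to the start of transcription. Among the members that fell, only those whose windows hold this site are shown, and Adamts14 (log2 fold change -1.31) is not. The panel therefore cannot show whether the site goes with the direction of change. The sequences of these 4 members are given with those of Mmp14 and Adamts9, which rose, so that the site can be seen in place. Each is the stretch of 250 bases before the RefSeq start in GRCm38.p6, written 5′ to 3′ on the gene's own strand, with capitals for the 7-base motif TGACTCA on either strand (its reverse complement is TGAGTCA). The windows are chr9:7445572-7445821 for Mmp3, chr9:7502092-7502341 for Mmp10, and chr9:7272264-7272513 for Mmp13, all on the plus strand. Those of Adam19 and Mmp14 are chr11:46055734-46055983 and chr14:54431348-54431597 on the plus strand, and that of Adamts9 is chr6:92943535-92943784 on the minus strand.
Mmp3: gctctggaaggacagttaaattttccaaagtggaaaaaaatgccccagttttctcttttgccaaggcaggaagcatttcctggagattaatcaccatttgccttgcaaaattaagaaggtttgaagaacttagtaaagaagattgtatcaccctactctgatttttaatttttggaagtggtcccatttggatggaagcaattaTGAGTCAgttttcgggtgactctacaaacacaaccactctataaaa
Mmp10: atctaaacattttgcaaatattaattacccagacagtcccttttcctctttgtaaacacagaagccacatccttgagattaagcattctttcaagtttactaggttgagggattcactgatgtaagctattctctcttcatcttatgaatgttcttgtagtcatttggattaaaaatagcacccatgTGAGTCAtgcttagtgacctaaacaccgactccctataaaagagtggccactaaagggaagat
Mmp13: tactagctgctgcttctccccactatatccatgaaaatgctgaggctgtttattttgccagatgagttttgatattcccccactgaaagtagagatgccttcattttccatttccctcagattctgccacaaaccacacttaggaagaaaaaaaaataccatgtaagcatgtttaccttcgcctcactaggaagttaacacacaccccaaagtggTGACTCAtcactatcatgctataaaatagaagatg
Adam19: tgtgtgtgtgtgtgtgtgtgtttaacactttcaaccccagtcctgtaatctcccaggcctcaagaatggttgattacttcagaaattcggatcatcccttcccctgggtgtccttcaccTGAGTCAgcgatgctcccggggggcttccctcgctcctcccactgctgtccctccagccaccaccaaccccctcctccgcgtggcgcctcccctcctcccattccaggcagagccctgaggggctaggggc
Mmp14: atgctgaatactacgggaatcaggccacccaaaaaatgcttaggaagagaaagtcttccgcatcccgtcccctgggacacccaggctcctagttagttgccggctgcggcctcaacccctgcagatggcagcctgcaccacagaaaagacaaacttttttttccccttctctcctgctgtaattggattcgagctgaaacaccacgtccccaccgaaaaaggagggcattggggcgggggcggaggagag
Adamts9: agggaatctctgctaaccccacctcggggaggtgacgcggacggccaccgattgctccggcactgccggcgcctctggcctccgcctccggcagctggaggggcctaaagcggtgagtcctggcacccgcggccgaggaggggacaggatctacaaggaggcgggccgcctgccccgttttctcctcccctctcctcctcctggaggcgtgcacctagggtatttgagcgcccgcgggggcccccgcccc

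The motif starts 46 bases before the start of Mmp3, 63 before that of Mmp10, 35 before that of Mmp13, and 131 before that of Adam19, and it is not in the windows of Mmp14 and Adamts9. Adam19 has 3 RefSeq starts, and only this window holds the motif. Of the 48 members with a promoter entry, 20 were tested. The motif was in 4 of the 8 that fell, those shown here, and not in the windows of the other 4, Adamts1, Adamts14, Mmp28, and Timp1. It was in 0 of the 9 that rose and 0 of the 3 that were not called, and in 4 of the 28 that were not tested, namely Mmp12, Mmp1b, Mmp7, and Adam29. Mmp3, Mmp10, Mmp13, Mmp12, Mmp1b, and Mmp7 all lie in the cluster on chromosome 9, so they may not be independent cases. Counted per gene, the motif was in 8 of the 48 members (16.7%) and in 5.16% of all 27025 genes with a window. That difference was not tested. Over all 32851 promoter windows, 4.46% hold the motif. Among tested genes with a promoter entry, it was in 6.47% of the 448 that were lower and in 7.61% of the 683 that were higher by 1 or more on the log2 scale, against 4.11% of all 9424. The member groups were counted at any size of change, so the shares of genes with a change of 1 or more do not match them. Of the 4 lower members without the motif, only Adamts14 (log2 fold change -1.31) fell by 1 or more. No binding of AP-1 was measured in these samples. Mmp9 has no entry.

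The membrane-type MMPs that were tested were all called higher, as 32.8% of all tested genes were, though the call of Mmp24 was not stable. Mmp14 (MT1-MMP), a collagenase of the cell surface that also activates the precursor of MMP2, had 134, 149, and 132 CPM in P and 259, 269, and 239 CPM in AxR libraries. Its log2 fold change was 0.88, with an SE of 0.060 and an adjusted p of 6.45e-09. Mmp14 made up 93.9 ± 0.189% of the summed TPM of the 6 membrane-type genes in P cells and 93.9 ± 0.416% in AxR cells (SD, n = 3 each), so this class consists almost wholly of 1 gene in both lines. Mmp15 (MT2-MMP) had 7.45 ± 0.316 CPM in P and 13.8 ± 0.723 CPM in AxR cells (SD, n = 3 each) and rose (log2 fold change 0.89, adjusted p = 2.37e-06). Mmp24 (MT5-MMP) was near the limit of detection, with 0.547, 0.520, and 0.326 CPM in P and 1.71, 0.701, and 0.683 CPM in AxR libraries. It was called higher (log2 fold change 1.12, SE 0.439, adjusted p = 0.0368), but the call rests on AxR replicate 1, without which the log2 fold change was 0.56 (adjusted p = 0.293). The call was also lost without any single P library (adjusted p between 0.0580 and 0.124), with DESeq2 (adjusted p = 0.0873), and with limma-voom (adjusted p = 0.0672). Over all alternatives the adjusted p of Mmp24 lay between 0.0144 and 0.293. An exon of Mmp24 overlaps BC029722 on the opposite strand. Mmp23, which is also tethered to the membrane, had 0.482 ± 0.155 and 0.798 ± 0.0799 CPM (SD, n = 3 each) and was not called (log2 fold change 0.70, adjusted p = 0.113).

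**Figure D4:**
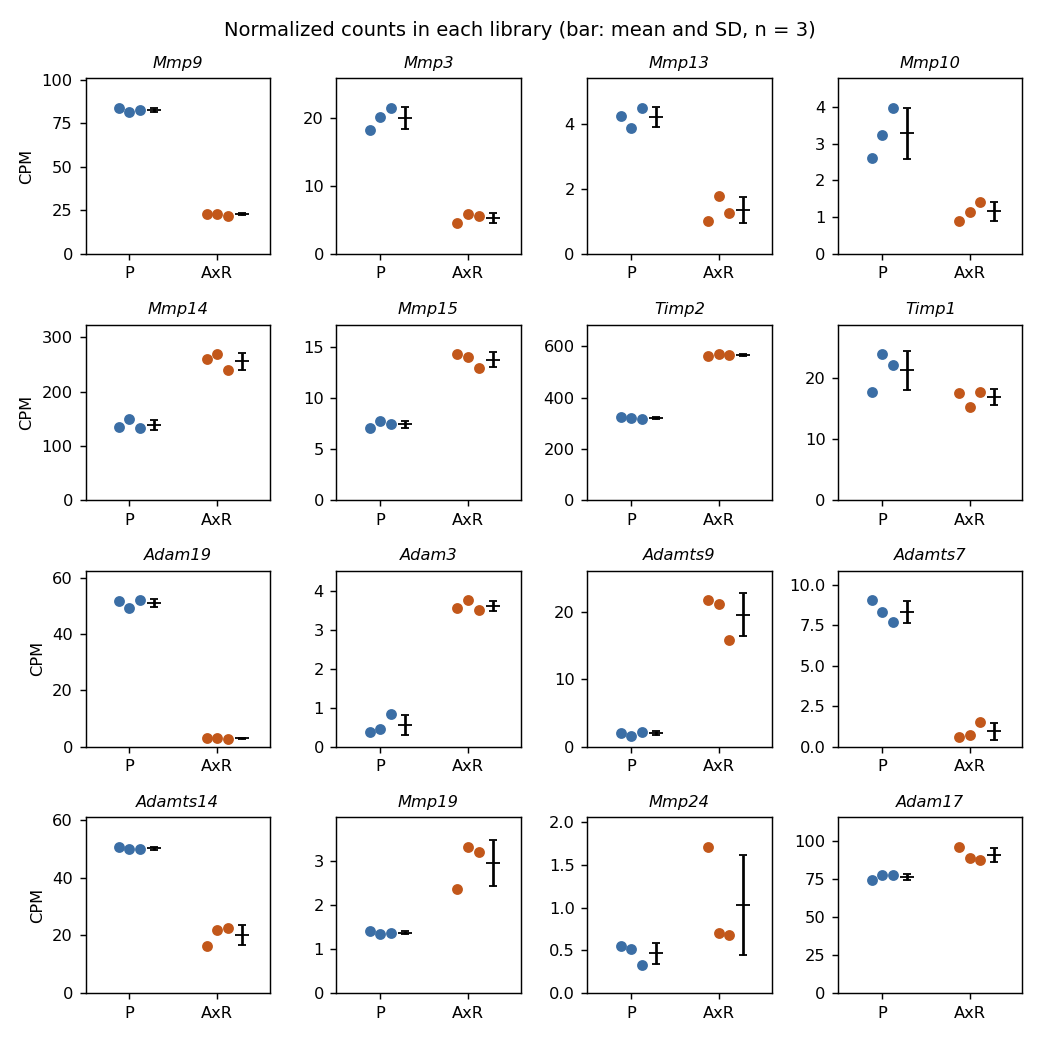
CPM of 16 members in each P (blue) and AxR (orange) library, on linear axes from 0, with the mean and SD of 3 libraries in black. Mmp9, Mmp3, Adam19, Adamts7, and Adamts14 sit lower in every AxR library, Mmp14, Timp2, and Adamts9 sit higher, and 1 AxR library of Mmp24 stands apart at 1.71 CPM.

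The TIMPs split as well. Timp2, which inhibits MMPs broadly and also bridges MT1-MMP and the MMP2 precursor at the cell surface, had 326, 320, and 318 CPM in P and 561, 570, and 567 CPM in AxR libraries. The log2 fold change was 0.82, with an SE of 0.043 and an adjusted p of 4.65e-10. Timp1, which binds MMP9 and inhibits MT1-MMP poorly, had 17.8, 24.0, and 22.2 CPM in P and 17.6, 15.4, and 17.8 CPM in AxR libraries. P replicate 1 and AxR replicate 3 were thus almost at the same level, and the fall of Timp1 (log2 fold change -0.33, SE 0.107, adjusted p = 0.0135) did not pass the threshold when 1 of 3 libraries was left out, P replicate 2 (adjusted p = 0.0789), P replicate 3 (adjusted p = 0.0537), or AxR replicate 2 (adjusted p = 0.0718). Over all alternatives the adjusted p of Timp1 lay between 0.000780 and 0.0789. Timp3, the matrix-bound inhibitor of ADAM17 and several ADAMTSs, had at most 3 counts in any library, so that Timp2 supplied 77.5 ± 2.84% of the summed TIMP TPM in P cells and 88.4 ± 0.878% in AxR cells (SD, n = 3 each).

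Sums and ratios within a library place these changes beside each other. The 15 secreted MMPs summed to between 151 and 157 TPM in P libraries and between 61.2 and 68.6 TPM in AxR libraries. The membrane-type MMPs summed to between 77.5 and 89.9 TPM in P and between 143 and 154 TPM in AxR libraries. In P cells the secreted class was therefore the larger, and in AxR cells the membrane-type class was, in each library. These sums use the length of all exons. With the longest protein-coding transcript as length, Mmp14 had 105 TPM in P cells rather than 78.1, and Mmp9 had 64.2 rather than 78.5. The size of the gap in P cells thus depends on the length used. Whether the secreted class stays the larger in each P library with that other length was not examined. The TIMPs summed to 358 ± 10.4 TPM in P and 529 ± 26.6 TPM in AxR cells, the ADAMTSs to 165 ± 8.51 and 110 ± 5.51 TPM, and the ADAMs to 455 ± 8.34 and 422 ± 1.98 TPM (SD, n = 3 each). None of these sums overlapped between the lines. The TPM ratio of Mmp9 to Timp1 was 1.18, 0.852, and 0.935 in P libraries and 0.329, 0.374, and 0.310 in AxR libraries. For Mmp14 to Timp2 it was 0.270, 0.305, and 0.271 in P and 0.302, 0.309, and 0.276 in AxR libraries. The first ratio was lower in every AxR library, while the second overlapped between the lines, both of its genes having risen.

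**Figure D5:**
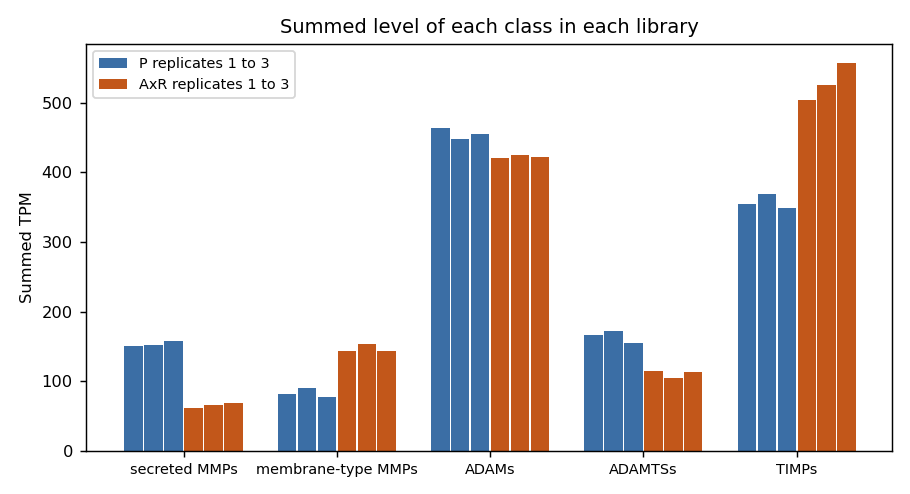
Summed TPM of 15 secreted MMPs, 6 membrane-type MMPs, 33 ADAMs, 19 ADAMTSs, and 4 TIMPs in each library (bars from 0, P blue and AxR orange). The means of P and AxR libraries are 154 and 65.1 TPM for secreted MMPs, 83.1 and 147 TPM for membrane-type MMPs, and 358 and 529 TPM for TIMPs, with no overlap between the lines.

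Among the ADAMs, the abundant sheddases changed little and Adam19 fell most. Adam19 (meltrin beta), a protease known for its role in heart development, had 51.5, 49.2, and 51.9 CPM in P and 3.18, 2.93, and 2.56 CPM in AxR libraries. No tested member fell further, at 17.6-fold (log2 fold change -4.14, SE 0.096, adjusted p = 7.53e-14). Adam19 lies on chromosome 11 from 46055992 to 46147343, on the plus strand, where the 1046 tested genes had a median log2 fold change of 0.01. Adam17, the TNF-alpha converting enzyme, rose from 76.6 ± 2.06 to 91.0 ± 4.84 CPM (SD, n = 3 each) with log2 fold change 0.25 (adjusted p = 0.00127), while Iah1, which overlaps it on the opposite strand, had -0.70. Adam10, the other main sheddase, had 194, 174, and 190 CPM in P and 218, 208, and 182 CPM in AxR libraries and was not called (log2 fold change 0.12, 95% confidence interval -0.02 to 0.26, adjusted p = 0.119). Without AxR replicate 3 it passed, with a log2 fold change of 0.20 (adjusted p = 0.00521). Over all alternatives its adjusted p lay between 0.00521 and 0.378. The ratio of Adam10 to Adam17 TPM overlapped between the lines, at 3.53 ± 0.274 in P and 3.23 ± 0.194 in AxR cells (SD, n = 3 each). Adam9, which had 241, 232, and 249 CPM in P and 205, 205, and 197 CPM in AxR libraries, fell with a log2 fold change of -0.25. Adam15 and Adam8 rose, with log2 fold changes of 0.36 and 0.58. Adam12 (meltrin alpha) was not called (log2 fold change 0.08, 95% confidence interval -0.04 to 0.19). For Adam15 and Adam9 the shift was close to the median of their chromosomes, 0.32 on chromosome 3 and -0.18 on chromosome 8, and the part of the chromosome in the change of a member was not tested.

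Adam3 rose from a low level. This gene encodes a sperm surface protein needed for fertilization, and it had 0.365, 0.462, and 0.848 CPM in P and 3.56, 3.76, and 3.53 CPM in AxR libraries (log2 fold change 2.70, SE 0.279, adjusted p = 7.15e-07). Without P replicate 3 the log2 fold change was 3.10. Adam3 lies in a cluster of 5 ADAM genes on chromosome 8 that spans 415 kb from 24602246 to 25016927, in the order Adam18, Adam3, Adam5, Adam32, and Adam9. Within this cluster Adam18, described above, had a sum of 1 estimated count in P and 15 in AxR libraries, and Adam5 had 0 and 4, whereas Adam32 had 11 and 7, and Adam9, the only member of the cluster with high expression, fell. Adam4 and Adam1a were low and were not called, with log2 fold changes of 0.65 and 0.27. Adam4 had 0.243, 0.808, and 0.587 CPM in P and 1.21, 1.08, and 0.341 CPM in AxR libraries, and it passed only without AxR replicate 3 (log2 fold change 1.05, adjusted p = 0.0418, against 0.268 with all libraries and at most 0.633 over all alternatives). Exons of Adam1a overlap Mapkapk5 on the same strand, so its reads are uncertain.

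The ADAMTSs held both a large rise and several falls. Adamts9, which cleaves the proteoglycans versican and aggrecan, had 2.07, 1.62, and 2.22 CPM in P and 21.7, 21.2, and 15.9 CPM in AxR libraries. No tested member rose further, at 9.97-fold (log2 fold change 3.32, SE 0.166, adjusted p = 3.06e-10). Adamts9 lies on chromosome 6 from 92772699 to 92943492, on the minus strand, and the 659 tested genes of that chromosome had a median of 0.01. Adamts7, which degrades cartilage oligomeric matrix protein, had 9.06, 8.31, and 7.69 CPM in P and 0.572, 0.701, and 1.54 CPM in AxR libraries (log2 fold change -3.12, SE 0.239, adjusted p = 3.62e-08). AxR replicate 3 was the highest of the AxR libraries, and without it the log2 fold change was -3.70. Tbc1d2b overlaps an exon of Adamts7 on the opposite strand and had a log2 fold change of -0.94. Adamts14, which removes the amino-terminal propeptide of fibrillar procollagens, had 50.9, 50.2, and 49.9 CPM in P and 16.3, 21.8, and 22.5 CPM in AxR libraries (log2 fold change -1.31, SE 0.096, adjusted p = 2.79e-08). The other procollagen N-proteinases, Adamts2 and Adamts3, had 0 and at most 1 count, so that Adamts14 was the only member of this group above the floor.

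Of the remaining proteoglycan-cleaving ADAMTSs, Adamts1 had the highest TPM, as given above, and had 154, 165, and 152 CPM in P and 140, 109, and 115 CPM in AxR libraries. It fell (log2 fold change -0.37, SE 0.080, adjusted p = 0.00144). Adamts8 fell from 18.8 ± 1.62 to 12.2 ± 0.516 CPM (SD, n = 3 each) with log2 fold change -0.63. Adamts4 and Adamts5, the aggrecanases, were low and not called. Adamts4 had 2.63 ± 0.0651 and 3.09 ± 0.264 CPM (log2 fold change 0.23, 95% confidence interval -0.15 to 0.62), and Adamts5 had 1.16 ± 0.232 and 0.691 ± 0.403 CPM (SD, n = 3 each; log2 fold change -0.77, 95% confidence interval -1.65 to 0.10). Adamts1 and Adamts5 are neighbours on chromosome 16, where the median of 397 tested genes was -0.32. Adamts6 and Adamts10, which act on the fibrillin microfibril network, had log2 fold changes of -0.45 (called lower, on chromosome 13 with a median of -0.27) and 0.33 (not called, adjusted p = 0.108).

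Genes that regulate these enzymes, that they cleave, or that are related to them were taken from 8 lists with 77 genes in all. In all, 47 passed the filter, of which 19 rose (32.8% of all tested genes did) and 21 fell (30.8% did), with a median log2 fold change of -0.08. Lrp1, the endocytic receptor that clears MMPs and TIMPs from the cell surface, rose from 351 ± 11.1 to 1172 ± 44.9 CPM (SD, n = 3 each) with log2 fold change 1.74 (adjusted p = 5.21e-13). Bsg (EMMPRIN), a membrane glycoprotein known to induce MMPs, rose with a log2 fold change of 0.60, while Reck, a membrane-anchored MMP inhibitor, fell from 8.01 ± 0.744 to 6.32 ± 0.793 CPM (SD, n = 3 each; log2 fold change -0.34, adjusted p = 0.0385). Some proprotein convertases remove the inhibitory propeptide of many members. Of the 5 tested genes in their list, Pcsk6 (PACE4) rose from 5.48 ± 0.209 to 28.1 ± 1.69 CPM (SD, n = 3 each) with log2 fold change 2.36. Furin and Pcsk7 fell, with log2 fold changes of -0.40 and -0.69, and the other 2 were not called.

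Among the partners of the main sheddases, most tested genes were higher, where 32.8% of all tested genes were higher and 30.8% lower. The lists are short, and this difference was not tested. TspanC8 tetraspanins escort ADAM10 out of the endoplasmic reticulum and steer its choice of substrate. Of the 5 tested, 4 rose, with log2 fold changes of 1.11 for Tspan5, 1.06 for Tspan15, and 0.46 for Tspan14 and with 3.39 ± 0.286 against 7.83 ± 0.354 CPM for Tspan17 (SD, n = 3 each). Tspan33 fell from 1.87 ± 0.101 to 0.760 ± 0.132 CPM (SD, n = 3 each) with log2 fold change -1.30. Tspan5 rose from 52.9 ± 1.39 to 114 ± 3.91 CPM (SD, n = 3 each). Of the iRhom complex, which carries ADAM17 to the cell surface, Rhbdf1 and Frmd8 rose, with log2 fold changes of 0.38 and 0.20. Rhbdf2 was not called, with 44.5 ± 3.86 and 38.6 ± 5.95 CPM (SD, n = 3 each; log2 fold change -0.20, adjusted p = 0.102).

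Of the 17 tested genes in the list of membrane proteins shed by metalloproteinases, 7 were higher and 9 lower. Over all tested genes the shares were 32.8% and 30.8%. Cdh1 and Epcam, which rose, are also epithelial markers of the list above. The list held 5 ligands of the EGF receptor, which were grouped after their values were seen. Ereg had no count, and the other 4 fell by more than 1 on the log2 scale, where 4.72% of all tested genes fell by 1 or more. Hbegf went from 225 ± 19.6 to 106 ± 10.3 CPM, Areg from 46.8 ± 8.55 to 14.5 ± 1.85 CPM, Tgfa from 125 ± 5.82 to 62.0 ± 2.28 CPM, and Btc from 7.04 ± 0.845 to 3.21 ± 0.457 CPM (SD, n = 3 each). L1cam, an adhesion molecule, fell as well (log2 fold change -1.28), and Tnfrsf1b, a TNF receptor, rose (log2 fold change 1.15). Among the tested matrix substrates, Fn1, Lamb3, Col4a1, and Col4a2 fell, with log2 fold changes between -0.64 and -0.40. Nid1, the basement membrane linker nidogen-1, rose from 0.731 ± 0.0711 to 5.39 ± 1.04 CPM (SD, n = 3 each) with log2 fold change 2.86. In the list of ADAMTS-like proteins, Thsd4 was the only one called higher, with a log2 fold change of 1.42, and Adamtsl5 was lower. Of the other metzincin proteases, Bmp1 fell (log2 fold change -0.43) and Pappa2 rose from 0.239 ± 0.204 to 1.67 ± 0.0303 CPM (SD, n = 3 each; log2 fold change 2.74).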

How the data were processed

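The authors prepared stranded libraries of poly(A) RNA from 3 P and 3 AxR samples of 4T1 cells. Per the labels and the study's methods, reads were checked with FastQC 0.11.5, aligned with STAR 2.6.0a to GRCm38, and quantified against GENCODE M16 with RSEM 1.3.1. The deposited values are RSEM estimated counts per gene, before filtering and normalization; RSEM shares reads between similar genes, and the strand setting is not given in the sources used here. The depth was 15495260 to 17294525 estimated counts per library, and floors cover counting error only.

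After rounding, genes passing filterByExpr (13550) were scaled by the upper quartile and compared in edgeR 4.0.16 (R 4.3.3) by its quasi-likelihood test, with the line as the only term and Benjamini-Hochberg adjustment over all tested genes. Standard errors are the log2 fold change divided by the square root of F. CPM uses the normalized library size, and TPM uses union exon lengths of GENCODE M21 (same build), in which 53360 of 53465 identifiers were found. The fit was tested on simulated data. Replicates of a line differed by more than sampling noise (chi-square of 5.03 to 19.4 per degree of freedom) and all were kept.

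Alternatives were TMM, library size only, DESeq2 1.42.0, limma-voom (limma 3.58.1), no filter, at least 10 counts in every library, the replicate number as a block, each library left out, and an added fold threshold. Every tested member is named. Values per library are given for members called with a change of 1 or more on the log2 scale, for TIMPs above the floor, for the most abundant members, and for those whose call changed. Genes of the 8 lists are named when called with such a change, and a few regulators in any case. Beyond that rule, list members such as Frmd8, Tspan14, Pcsk7, Bmp1, Fn1, Lamb3, and the collagen IV chains, the 2 ratios to TIMPs and that of Adam10 to Adam17, the genes flanking the clusters, and the promoters shown were chosen after values were seen. The use of the longest protein-coding transcript was also chosen after seeing the data. Members and lists were chosen with earlier results of these data known. A few values of single list genes and of overlapping genes are not reported here.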

Additional observations from a re-analysis of the deposited data

How the results depend on the processing

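Over the alternatives, 399 fits of single members kept their direction and their side of the threshold, 9 lost the call, 2 gained it, and 0 changed sign. Among the tested members, the calls that changed were those of Timp1, Mmp24, Adam10, and Adam4. The minimum of 10 counts in every library left the called Adam3, Adamts7, and Mmp24 untested, and without a low-count filter Adam18 was also called higher and Adamts12 lower. Apart from the added fold threshold, 9 to 13 members were higher and 12 to 14 lower. The added threshold of 1 on the log2 scale left 4 members higher and 7 lower, 9 regulator and substrate genes higher and 6 lower, and 1083 of all genes higher and 640 lower, which follows from the added criterion. Without a low-count filter the median log2 fold change of the members was 0.081, over more low genes, against 0.18. With the longest protein-coding transcript as length, 23 of the 32 ranks by TPM moved in P cells and 22 in AxR cells. With the replicate block, 11 members were higher and 13 lower, and it changed no call of a member. The replicate numbers are only names here, and no library correlated best with its own number (r of -0.02, -0.01, and -0.02). Low counts limit what can be said of Mmp24, Adam4, Adam1a, Adamts5, and Mmp23, each near 1 CPM or lower. The same holds for the 46 untested members, of which 23 had no count in any library. The part of sequencing depth in these low counts was not tested.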
